A study of Mus musculus with 37 samples.

Results

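The nuclear-encoded subunits of the oxidative phosphorylation machinery were described in mouse lung by their gene symbols, taking every row whose symbol begins Nduf followed by a, b, c, s or v and a number, Sdha to Sdhd, Uqcr, Cox4 to Cox8, or Atp5. The rule found 84 of the 24421 rows of the count table. They were 35 rows of complex I, 4 of complex II, 8 of complex III, 19 of complex IV, 15 of complex V and 3 of associated factors (Atp5s, Atp5sl and Cox7a2l). By tissue class they were 73 ubiquitous subunits, 3 muscle isoforms (Cox6a2, Cox7a1 and Cox8b), 2 isoforms known from hypoxia and from lung vessels (Cox4i2 and Ndufa4l2), 3 known from testis (Cox6b2, Cox7b2 and Cox8c) and the 3 associated factors. A filter on low counts left 81 of the 84 for testing. The others were Cox8c, Cox7b2 and Ndufs5, with 6, 66 and 6 reads over all libraries, so nothing is said of the level of Ndufs5, a subunit of complex I.

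Oxidative phosphorylation takes electrons from NADH at complex I and from succinate at complex II, and passes them through complex III to cytochrome c and on to oxygen at complex IV. The protons pumped at complexes I, III and IV drive ATP synthase, which is complex V. Most subunits are made in every tissue, but some subunits of complex IV exist as separate genes for heart and skeletal muscle, where mitochondria are dense, and Cox7a1 and Cox8b are also known from brown fat. The subunits encoded in mitochondrial DNA are not analysed here.

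All 37 mice were C57BL/6, each gave 1 lung library, and the groups were named by the labels. All irradiated mice received 0.75 Gy. GCR (7 mice) was a simulation of galactic cosmic radiation with 5 ion species, gamma (5 mice) was 137-Cs gamma rays, silicon (7 mice) was silicon ions of 300 MeV per nucleon, and silicon + NR (6 mice) was the same beam in mice that drank nicotinamide riboside (NR), a precursor of NAD, at 12 mM from before the exposure. The groups at 0 Gy were mock + NR (5 mice) and mock (7 mice). Males and females numbered 3 and 4 in GCR, 3 and 2 in gamma, 3 and 4 in silicon, 4 and 2 in silicon + NR, 4 and 1 in mock + NR, and 5 and 2 in mock. The labels state neither age nor the time from exposure to dissection.

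Total counts per library ran from 9485197 to 66381526, with a median of 28476462. Values are given as CPM, the counts of a gene scaled to a common library total. The lung label was checked with 5 alveolar markers and 3 club cell markers, which summed to 899 to 40842 CPM and 26677 to 326045 CPM per library. One library, gamma replicate 5, is labelled female but had 3.73 CPM of Xist and 200.1 CPM of 4 Y-linked genes. Without it, no subunit was called in gamma against mock or in females against males, as with it. Other tissue stood out in several libraries. The skeletal muscle gene Acta1 was over 1000 CPM in 13, which were 5 silicon, 2 silicon + NR, 2 mock + NR and 4 mock libraries, and the atrial gene Nppa was over 10000 CPM in gamma replicates 3 and 4. The lymphoid gene Ccl19 was over 100 CPM in silicon replicates 3 and 6 and mock + NR replicate 4, and Ucp1 of brown fat in 4 libraries named further on. Rn45s, the ribosomal RNA precursor, was over 100000 CPM in GCR replicates 2, 5 and 6 and in mock replicate 4.

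The 84 rows together took between 10860 CPM (mock + NR replicate 3) and 51451 CPM (silicon replicate 4) of a library. The share of all counts was 1.32 ± 0.23% in GCR (SD, n = 7), 2.33 ± 1.48% in gamma (n = 5), 2.54 ± 1.18% in silicon (n = 7), 1.75 ± 0.58% in silicon + NR (n = 6), 1.67 ± 0.57% in mock + NR (n = 5) and 1.95 ± 0.85% in mock (n = 7). All counts include Rn45s, with a median of 56400 CPM in GCR and 22480 CPM in mock. They also include the club cell gene Scgb1a1, with medians of 165300 and 102800 CPM. The part of these 2 genes in the shares was not tested. The next highest sums after silicon replicate 4 were 42486 CPM in gamma replicate 3 and 36124 CPM in gamma replicate 4, then 33949 CPM in mock replicate 5 and 27853 CPM in mock replicate 3. All 5 carried high Acta1 or Nppa. Ucp1 of brown fat was also present in gamma replicate 3 (807 CPM), mock replicate 5 (500 CPM) and mock replicate 3 (94.4 CPM). It was 0.14 CPM in silicon replicate 4 and 0.19 CPM in gamma replicate 4. Acta1 and the sums did not rank alike, since silicon + NR replicate 4 had 29651 CPM of Acta1 and a sum of 23019 CPM. The part of each tissue in the sums was not tested. Silicon replicate 4 had 36927 CPM of Acta1, the highest of all libraries, and 5.18 CPM of Nppa. Gamma replicate 4 had 24514 CPM of Nppa and 8.19 CPM of Acta1.

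**Figure D1:**
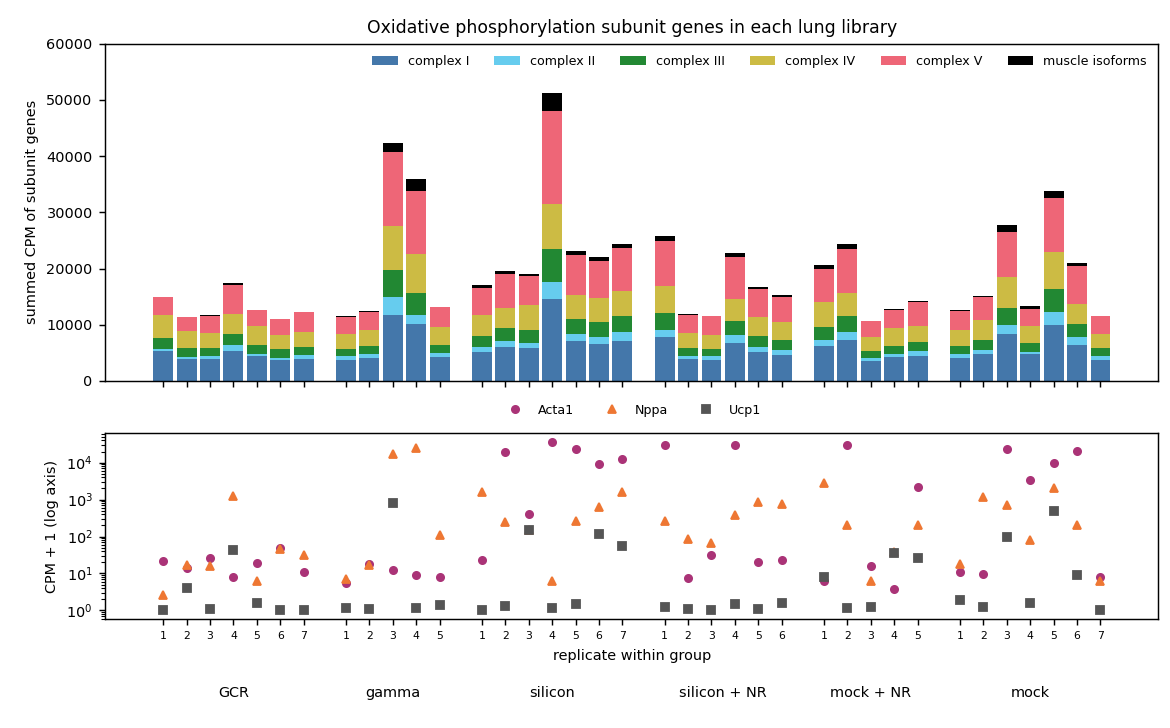
Upper panel: summed CPM of the ubiquitous subunit genes of complexes I to V and of the 3 muscle isoforms, stacked, in each of 37 libraries. Lower panel: CPM + 1, on a log axis, of Acta1 (skeletal muscle), Nppa (atrium) and Ucp1 (brown fat) in the same libraries. The 3 highest stacks, silicon replicate 4 and gamma replicates 3 and 4, stand over high Acta1 or high Nppa. Gamma replicate 3 also has the highest Ucp1.

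Between subunits, levels were compared per kilobase of transcript, as the mean over the 37 libraries. Complexes III and IV stood highest. Complex IV had a median over its 11 ubiquitous subunits of 529 CPM per kilobase and a range from 232 for Cox7b to 1120 for Ndufa4, long assigned to complex I and since found in complex IV. Complex III had a median of 545 CPM per kilobase over 8 subunits, from 94.1 for the core protein Uqcrc2 to 719 for the small subunit Uqcr11. Complex V had a median of 352 CPM per kilobase, from 132 for Atp5g2, one of 3 genes for subunit c, to 721 for Atp5b, the catalytic beta subunit. Complex I had a median of 196, from 55.5 CPM per kilobase for Ndufs1, its large iron-sulfur subunit, to 528 for Ndufa1, and complex II a median of 161, from 47.4 for the membrane anchor Sdhc to 228 for the iron-sulfur subunit Sdhb. The ranges of the complexes overlapped, except that complex II ended at 228, just under the 232 at which complex IV began. The muscle isoforms, averaged over all libraries, reached 434 CPM per kilobase for Cox6a2, 277 for Cox7a1 and 363 for Cox8b, beside 538 for Cox6a1 and 529 for Cox8a, while Cox4i2 and Ndufa4l2 stood at 20.1 and 11.4.

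Within groups, the subunits were not equally steady. The standard deviation between libraries of 1 group on the log2 CPM scale was 0.333 to 0.983 over the 72 tested ubiquitous subunits, with a median of 0.581. It was smallest for Ndufc2, a subunit of complex I, at 0.333 and among ubiquitous subunits largest for Atp5b at 0.983. The associated factors Atp5sl and Atp5s had 0.346 and 0.352. The muscle isoforms had 1.70 (Cox7a1), 1.76 (Cox6a2) and 1.88 (Cox8b), and the pair Ndufa4l2 and Cox4i2 had 0.978 and 1.03.

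The ubiquitous subunits also followed the libraries rich in muscle, to unequal degrees. The median level in the 13 Acta1-rich libraries over the median in the 22 libraries with neither marker had a median of 1.72 over the 72 subunits, and 69 were over 1. In the 2 Nppa-rich libraries the same ratio had a median of 2.58, and all 72 were over 1. Atp5b stood highest on both counts, at 3.34 and 5.90. The ratio in Acta1-rich libraries was under 1 for Cox6a1 at 0.76, Cox8a at 0.829 and Ndufc2 at 0.984. Cox6a1 and Cox8a are the ubiquitous partners of Cox6a2 and Cox8b, whose ratios were 6.59 and 10.1 in Acta1-rich and 16.5 and 22 in Nppa-rich libraries. Gamma replicate 3, 1 of the 2 Nppa-rich libraries, also held 807 CPM of Ucp1, the most of all libraries. In bulk tissue, more cells of a type and more RNA per cell cannot be told apart.

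The promoters of the subunits were searched for 3 motifs of factors known to drive mitochondrial genes, on both strands of 300 bases around the start (250 before it and 50 after it), for the 69 of 84 symbols with an entry. NRF1, nuclear respiratory factor 1, was searched as GCGCA, any base and GCGC, ETS factors such as GABPA as CCGGAAGT, and ERR, the estrogen-related receptors, as TCAAGGTCA. The NRF1 motif stood in 17 of 69 (24.6%), against 5.19% of the promoters of all 27025 genes. The ETS motif stood in 5 of 69 (7.25%), against 4.31%, and the ERR motif in 2 of 69 (2.90%), against 0.466%. All matches were in ubiquitous subunits, of which 62 were searched. The 7 other symbols searched, among them Cox7a1 and Cox8b, had none of the 3 in this window. By complex, the NRF1 motif stood in 7 of 31 promoters for complex I, 2 of 3 for complex II, 1 of 5 for complex III, 1 of 9 for complex IV and 6 of 14 for complex V. The stretches of 250 bases before the start of 4 genes, from RefSeq on GRCm38.p6, show what promoters with and without the NRF1 motif look like. Sdha and Cox6a1 were chosen because they hold it, and most ubiquitous promoters do not, among them those of the partners Cox7a2 and Cox8a. Sdha is the flavoprotein of complex II (chr13:74350241-74350490, minus strand), and Cox6a1 (chr5:115348959-115349208, minus strand) is a ubiquitous subunit of complex IV. Cox7a1 (chr7:30183921-30184170, plus strand) and Cox8b (chr7:140900447-140900696, minus strand) are muscle isoforms. Each is written in the direction of its gene and ends at the base before the start, and capitals mark the NRF1 motif. A match is a match of letters, not a shown binding site.
Sdha: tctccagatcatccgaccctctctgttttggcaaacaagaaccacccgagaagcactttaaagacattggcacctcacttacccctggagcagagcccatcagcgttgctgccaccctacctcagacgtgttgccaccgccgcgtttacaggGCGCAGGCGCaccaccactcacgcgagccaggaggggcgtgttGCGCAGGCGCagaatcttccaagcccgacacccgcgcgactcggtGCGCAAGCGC
Cox6a1: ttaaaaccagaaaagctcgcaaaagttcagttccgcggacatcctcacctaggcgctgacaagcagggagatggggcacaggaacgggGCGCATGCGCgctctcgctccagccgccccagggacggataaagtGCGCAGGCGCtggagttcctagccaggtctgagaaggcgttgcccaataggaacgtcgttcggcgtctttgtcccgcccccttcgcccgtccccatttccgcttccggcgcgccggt
Cox7a1: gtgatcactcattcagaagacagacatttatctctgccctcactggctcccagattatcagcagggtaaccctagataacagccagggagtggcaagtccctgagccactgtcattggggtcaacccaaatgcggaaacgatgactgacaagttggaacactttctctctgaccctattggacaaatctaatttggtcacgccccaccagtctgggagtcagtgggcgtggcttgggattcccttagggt
Cox8b: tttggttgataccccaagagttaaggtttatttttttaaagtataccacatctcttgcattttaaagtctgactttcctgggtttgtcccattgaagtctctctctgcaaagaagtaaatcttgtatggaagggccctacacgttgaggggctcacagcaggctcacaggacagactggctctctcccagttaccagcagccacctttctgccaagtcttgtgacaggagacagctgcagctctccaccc
Sdha held 3 matches and Cox6a1 held 2, while Cox7a1 and Cox8b held none.

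GCR against mock asks what the simulated cosmic radiation did to these genes, and it was the only comparison in which edgeR called a subunit. By edgeR's quasi-likelihood test with Benjamini-Hochberg adjustment over all 16977 genes tested, 9 of the 81 subunits (11.1%) passed at an adjusted p under 0.05, against 16.6% of all genes tested. Of the 9, 1 was higher and 8 were lower in GCR, against 8.03% of all genes higher and 8.52% lower. The share of subunits called is thus not above that of all genes. At an unadjusted p under 0.05 there were 25 subunits, against 34.4% of all genes. The lower ones were the 3 muscle isoforms, Ndufa4l2, and 4 ubiquitous subunits of complexes I, II and III, and the higher one was Cox7a2l. Of the 72 ubiquitous subunits 51 were below 0 and 21 above, with a median log2 fold change of -0.31 beside -0.06 for all genes.

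Cox6a2, the heart and skeletal muscle form of subunit VIa (chr7:128205435-128206387 on GRCm38), ran from 8.37 to 188 CPM in GCR, with a median of 33.6, and from 26.2 to 551 CPM in mock, with a median of 333. The groups overlapped, since mock replicates 7 and 1 stood at 26.2 and 40.2 CPM. Its log2 fold change was -2.64 (SE 0.93, edgeR adjusted p 0.0481). Cox7a1, the muscle form of subunit VIIa (chr7:30184144-30186078), ran from 6.21 to 70.1 CPM in GCR (median 16.2) and from 6.73 to 287 CPM in mock (median 132), a log2 fold change of -2.61 (SE 0.89, edgeR adjusted p 0.0422). Cox8b, the muscle form of subunit VIII (chr7:140898945-140900446), ran from 9.95 to 82.8 CPM in GCR (median 14.4) and from 6.53 to 478 CPM in mock (median 139), a log2 fold change of -2.79 (SE 0.99, edgeR adjusted p 0.0489). For all 3 the highest GCR library was replicate 4, and the lowest mock libraries were replicates 1 and 7. The ubiquitous partners did not pass the test in the same contrast. Cox6a1 had a median of 302 CPM in GCR and 320 CPM in mock (log2 fold change 0.25), Cox7a2 of 180 and 204 CPM (-0.04), and Cox8a of 301 and 291 CPM (0.38).

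Skeletal muscle markers moved with the muscle isoforms. Of 10 markers 9 fell in GCR against mock, and their sum had a median of 45.9 CPM and reached 118 CPM in GCR, against a median of 9378 CPM and up to 39930 CPM in mock, with all 10 detected in both groups. No GCR library but 4 of 7 mock libraries held over 1000 CPM of Acta1. The 8 heart markers summed to 75.8 to 6789 CPM in GCR (median 679) and 605 to 10666 CPM in mock (median 3998). None was called, but all 8 were below 0, with a median log2 fold change of -1.31. All 4 brown fat markers were also below 0, with a median of -3.18 and none called. Their summed CPM was not lower in GCR by the group median, but it reached 128 CPM in GCR and 1125 CPM in mock. Without the Acta1-rich libraries, which left 3 mock mice, none of the 81 and none of all 17142 genes tested was called, so that loss of calls is not particular to the subunits. In that fit the log2 fold change was -0.89 for Cox6a2, -0.38 for Cox7a1 and 0.24 for Cox8b. All 3 squamous epithelium markers also fell, and 3 of 4 ciliated cell markers rose. The part of these tissues in the other calls was not tested.

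**Figure D2:**
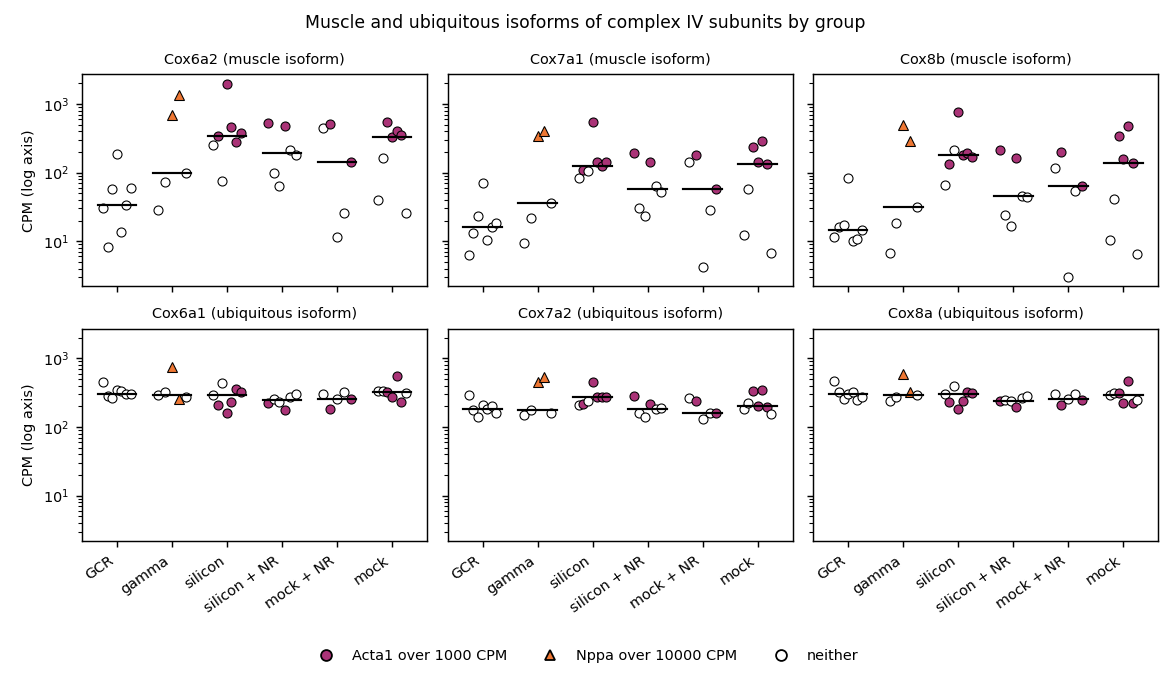
CPM on a log axis of the 3 muscle isoforms of complex IV (upper row) and their ubiquitous partners (lower row) in each library by group, with the group median as a bar and colours for libraries rich in Acta1 or Nppa. The muscle isoforms spread more widely within groups than their partners, up to 1951 CPM for Cox6a2 in silicon replicate 4. The partners stay between 132 and 754 CPM.

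Of the called ubiquitous subunits, Uqcrc1, a core protein of complex III, had 49.6 to 339 CPM in GCR (median 77) and 103 to 834 CPM in mock (median 206), a log2 fold change of -1.53 (SE 0.50, edgeR adjusted p 0.0368). Sdhb, which carries the iron-sulfur clusters of complex II, had 36.4 to 254 CPM in GCR (median 93.7) and 136 to 629 CPM in mock (median 178), a log2 fold change of -1.38 (SE 0.47, adjusted p 0.0428). Ndufa10, an accessory subunit of complex I, had 31.1 to 137 CPM in GCR (median 45.2) and 65.6 to 361 CPM in mock (median 88.9), a log2 fold change of -1.33 (SE 0.46, adjusted p 0.0462). Ndufa9, another accessory subunit and named after its values were seen, had a log2 fold change of -1.17 (SE 0.41, adjusted p 0.0482). In each of these 4 the groups overlapped, with GCR replicate 4 the highest of its group and mock replicate 4 the lowest of its own. Other core subunits missed the threshold. Atp5b had a log2 fold change of -1.49 (adjusted p 0.0576), Ndufv1, which binds NADH, of -1.26 (0.0644), Ndufs1 of -1.14 (0.0697), the Rieske protein Uqcrfs1 of -0.98 (0.103) and Sdha of -0.92 (0.111). With DESeq2, Atp5b, Ndufv1 and Ndufs1 passed. Without the Acta1-rich libraries the log2 fold change shrank to -0.58 for Uqcrc1, -0.51 for Sdhb and -0.43 for Ndufa10, and none passed.

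Ndufa4l2, a hypoxia-induced relative of Ndufa4, had a median of 5.45 CPM in GCR (0.53 to 12.0) and 15.7 CPM in mock (10.8 to 25.9). Only GCR replicate 4, at 12.0 CPM, reached into the range of mock. The log2 fold change was -1.61 (SE 0.47, edgeR adjusted p 0.0224). Without the 4 Rn45s-rich libraries, 3 of which are GCR libraries with 0.57, 1.87 and 0.53 CPM, it was -0.91 and did not pass. None of all 17084 genes tested passed in that fit, so the loss of the call is not particular to Ndufa4l2. Ndufa4l2 overlaps Shmt2, and Cox6a2 overlaps Itgad, on the opposite strand, and reads of the 2 strands cannot be told apart in these libraries. Ndufa4, the relative in complex IV, did not pass (log2 fold change -0.25, adjusted p 0.618). Cox7a2l, listed with the associated factors, had a median of 97.5 CPM in GCR (74.3 to 211) and 76.9 CPM in mock (59.1 to 96.9). Its log2 fold change was 0.72 (SE 0.21, edgeR adjusted p 0.0239). The groups overlapped, and 4 of the 7 GCR libraries exceeded every mock library. GCR replicate 6, an Rn45s-rich library with the fewest counts of all, was the highest. Without the Rn45s-rich libraries, the fit in which no gene passed, the log2 fold change of Cox7a2l was 0.15.

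By complex, the median log2 fold change in GCR against mock was -0.30 for complex I (34 subunits, 2 called lower), -0.78 for complex II (4 subunits, 1 lower), -0.27 for complex III (8 subunits, 1 lower), -0.13 for the ubiquitous subunits of complex IV (11, none called) and -0.57 for complex V (15, none called). All 4 subunits of complex II were below 0, while complex III was split, with 4 on each side. The median of the 72 ubiquitous subunits turned above 0 when the Acta1-rich libraries were left out, at 0.29. It stayed between -0.44 and -0.18 when any single library was left out. The genes of 1 subunit could differ within a complex. Of the 3 genes for subunit c of complex V, Atp5g1 had a median of 89.8 CPM in GCR and 177 CPM in mock (log2 fold change -1.10, SE 0.50, adjusted p 0.112), Atp5g2 of 53.1 and 57.2 CPM (0.16, SE 0.24), and Atp5g3 of 375 and 392 CPM (-0.04, SE 0.31). In complex IV, Cox4i1 had a median of 554 CPM in GCR and 550 CPM in mock (0.11), Cox5a of 176 and 197 CPM (-0.32), Cox6b1 of 290 and 361 CPM (-0.13) and Cox7b of 127 and 221 CPM (-0.66). None of these passed.

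**Figure D3:**
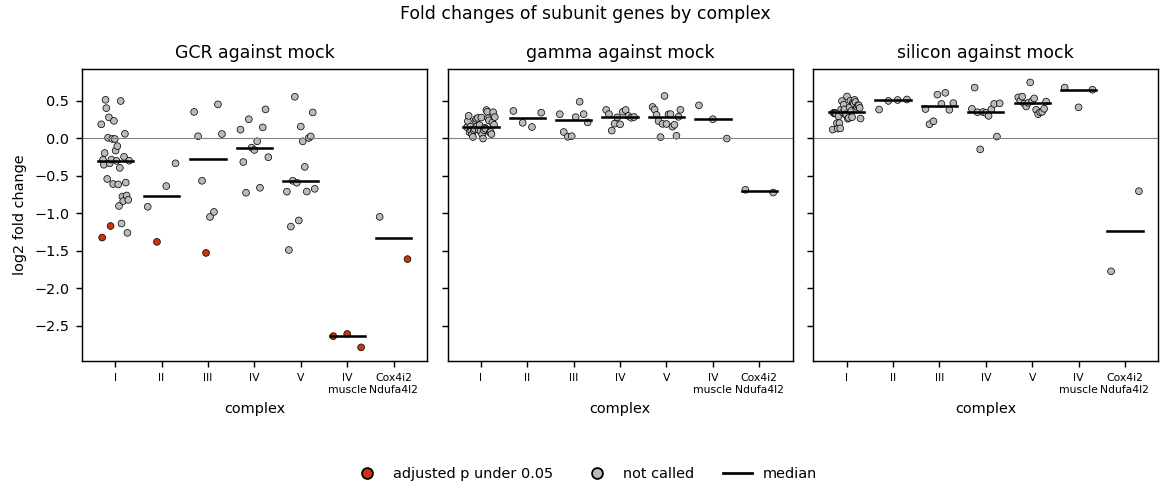
Log2 fold change of each subunit gene by complex in GCR, gamma and silicon against mock, with medians as bars and called genes in red. In GCR the 3 muscle isoforms of complex IV lie between -2.79 and -2.61. In gamma and silicon no gene is called and 71 of 72 ubiquitous subunits lie above 0.

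Among the ubiquitous subunits the fold change in GCR followed transcript length. The 24 with transcripts of at least 1001 bases had a median log2 fold change of -0.83, and all 24 were below 0. The 24 with transcripts of at most 572 bases had a median of 0.10, with 8 below 0. Spearman's rho across the 72 genes was -0.64, and -0.71 when each gene's longest principal transcript was used instead. These points share the same libraries, so no p is given. The long ones are mostly catalytic and core subunits (Atp5b, Uqcrc1, Sdha, Ndufs1, Ndufv1), and the short ones small accessory subunits. Across the 15211 other tested genes with a length, rho was 0.11, and those in the same long and short classes had medians of -0.08 and 0.25. Of those genes 14025 were in the long class and 236 in the short one, so this rho is mostly one among long genes. It is not comparable with that of the subunits. The relation among the subunits was seen without the Acta1-rich libraries (-0.65) and without the Rn45s-rich ones (-0.64). Its rho lay between -0.66 and -0.59 when any single library was left out. The levels of the 2 classes moved more than rho. Without the Acta1-rich libraries the median was -0.12 for the long and 0.56 for the short subunits, and without Acta1- or Rn45s-rich ones it was 0.02 and 0.46, so the long class then no longer lay below 0. A relation with length was not particular to GCR. With the opposite sign, rho was 0.61 in females against males (0.53 to 0.66 without each library), where the long and short classes had medians of 0.07 and -0.11. It was 0.60 in silicon + NR against mock + NR (0.09 to 0.64 without each library), with medians of 0.09 and -0.02. In silicon against mock it was 0.38 (0.05 to 0.55 without each library), and -0.01 without the Rn45s-rich libraries. In gamma against mock it was 0.23, but its sign was not steady. There it ran from -0.5 to 0.46 without each library, and was -0.44 without the Nppa-rich ones.

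The mean log2 CPM of long minus short subunits within a library separated some GCR mice from the rest. It was -1.32, -1.22, -1.05 and -1.20 in GCR replicates 1, 2, 5 and 6, and -0.30, 0.21 and -0.12 in GCR replicates 3, 4 and 7. It was between -0.82 and 0.48 in mock and between -0.29 and 0.69 in the other groups. The lowest mock value was that of replicate 4. Of the 5 lowest libraries 4 were the Rn45s-rich ones, and the fifth, GCR replicate 1, had 48066 CPM of Rn45s, within the range of the remaining libraries. The part of ribosomal RNA in this pattern was not tested.

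**Figure D4:**
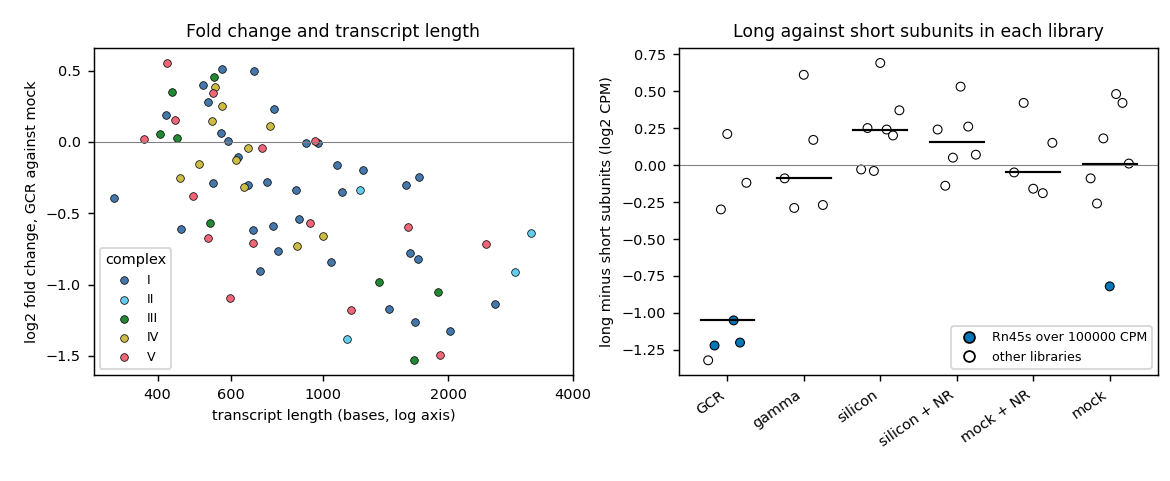
Left: log2 fold change in GCR against mock of 72 ubiquitous subunit genes against transcript length on a log axis, coloured by complex. Right: mean log2 CPM of the 24 longest minus the 24 shortest subunits in each library by group, with medians as bars and Rn45s-rich libraries in blue. All genes from 1001 bases up lie below 0, and 4 of 7 GCR libraries lie at or under -1.05.

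Gamma against mock compares a reference radiation at the same dose, with the same mock mice as in GCR. No subunit was called by edgeR, against 0.0295% of all genes, and none was called by DESeq2, which called 259 genes. None had an unadjusted p under 0.05, against 10% of all genes. The smallest p were those of Ndufc2 (log2 fold change 0.38, SE 0.20, edgeR adjusted p 0.535), Cox4i1 (0.38) and Cox8a (0.27) above 0, and of Ndufa4l2 (-0.73), Cox4i2 (-0.69) and Cox6b2 (-0.19) below it. Of 72 ubiquitous subunits 71 were above 0, with a median log2 fold change of 0.21 beside -0.01 for all genes. That sign rested on gamma replicates 3 and 4. Cox6a2 had 28.9, 73.4, 682, 1357 and 98.6 CPM in gamma replicates 1 to 5, against 26.2 to 551 CPM in mock (median 333). Atp5b had 634, 561, 4614, 2935 and 572 CPM in gamma, against 365 to 3137 CPM in mock (median 771). Without replicates 3 and 4 the median was -0.60 and 71 of 72 subunits were below 0. When Acta1-rich libraries were left out as well, it was 0.01, with 37 above and 35 below 0, and with voom and all libraries it was -0.41.

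Silicon against mock also shares the mock mice. No subunit and no gene (0%) was called by edgeR, and DESeq2 called 1 subunit, Cox4i2, among 425 genes. An unadjusted p under 0.05 was found for 3 subunits, against 12.9% of all genes. Above 0 the smallest p were those of Atp5g2 (log2 fold change 0.50, SE 0.24, edgeR adjusted p 0.379), Atp5g3 (0.53) and Ndufs4 (0.48), and below it those of Cox4i2, Cox6b2 (-0.52) and Ndufa4l2 (-0.71). The ubiquitous subunits had a median log2 fold change of 0.39 beside 0.07 for all genes, with 71 of 72 above 0. By complex the medians were 0.35 for complex I, 0.50 for complex II, 0.42 for complex III, 0.35 for complex IV and 0.47 for complex V. The median was 0.12 to 0.53 when any single library was left out, and 0.46 without Acta1-rich libraries, which left 2 silicon and 3 mock mice. Silicon replicate 4 was the extreme, with 1951 CPM of Cox6a2 beside 162 CPM of its partner Cox6a1, the lowest Cox6a1 of all libraries. Cox6a2 was 92.3% of the Cox6a reads there, against 14.8% to 67.2% in the other silicon mice and 7.84% to 63.2% in mock mice.

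Cox4i2, the form of subunit IV best known from lung, where it is found in vessel wall cells, moved apart from the ubiquitous subunits. It had 3.13 to 11.1 CPM in silicon (median 9.85), against 9.20 to 49.4 CPM in mock (median 32.8). Of the mock mice, replicates 6 and 3 at 9.20 and 9.68 CPM overlapped with silicon, and both were Acta1-rich. The log2 fold change was -1.78 (SE 0.52, edgeR adjusted p 0.114), past the threshold with DESeq2 (adjusted p 0.0232), without mock replicate 6 (-1.99, adjusted p 0.0435) and without the Acta1-rich libraries (-3.17, adjusted p 0.0322). That last fit kept 2 silicon and 3 mock mice and called 725 of 17142 genes. In mock + NR Cox4i2 had 4.56, 2.53, 5.94, 10.7 and 17.4 CPM, against the same mock values (log2 fold change -1.72, SE 0.57, edgeR adjusted p 0.120, DESeq2 adjusted p 0.0432). In GCR it had 1.55 to 23.4 CPM (log2 fold change -1.05, adjusted p 0.137). Ndufa4l2 went the same way in silicon, and passed there without the Acta1- or Rn45s-rich libraries (log2 fold change -2.44, edgeR adjusted p 0.00692). That fit also kept 2 silicon and 3 mock mice, and it called 1120 of 17052 genes. Of its silicon mice, replicate 3 was Ccl19-rich (447 CPM). The 6 pericyte markers, all detected in every group, summed to 97.6 to 292 CPM in GCR, 119 to 211 CPM in silicon and 105 to 206 CPM in mock + NR, against 189 to 414 CPM in mock. In silicon and in mock + NR all 6 were below 0, with none called, and in GCR 5 were below 0 and 1, Postn, fell. The 3 endothelium markers (Cdh5, Cldn5 and Pecam1) had a median log2 fold change of -1.36 in silicon and -1.65 in mock + NR, none called and all 3 with an unadjusted p under 0.05 in both. The 5 alveolar markers had medians of -1.25 and -1.54 there, none called. The part of these cell types in the level of Cox4i2 was not tested.

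The NR groups ask whether the supplement changed these genes alone or under silicon. No subunit and no gene (0%) was called by edgeR in mock + NR against mock, in silicon + NR against mock + NR, in silicon + NR against silicon, or for the interaction of silicon with NR. Subunits with an unadjusted p under 0.05 numbered 3, 0, 0 and 2 in these 4 contrasts, against 16.9%, 2.16%, 12.8% and 9.95% of all genes. DESeq2 called 1 (Cox4i2), 0, 0 and 0 subunits, among 591, 1, 353 and 327 genes. The ubiquitous subunits had a median log2 fold change of -0.13 in mock + NR against mock, with 63 of 72 below 0, and of 0.02 in silicon + NR against mock + NR. Without the Acta1-rich libraries these 2 medians were 0.33 and -0.28, so both turned their sign. In silicon + NR against silicon all 72 were below 0, with a median of -0.50 and adjusted p of at least 0.429. Of these groups 2 of 6 silicon + NR and 5 of 7 silicon libraries were Acta1-rich. Without those libraries the median was -0.39 with 71 below 0, from 4 and 2 mice. Voom with quality weights called 10 in that contrast, among 4207 of the 16977 genes. The smallest p below 0 were those of Uqcrq, a small subunit of complex III (-0.68, SE 0.36, edgeR adjusted p 0.429), Ndufb3 (-0.43) and Atp5j2 (-0.59), and above 0 those of Cox4i2 (0.53), Cox6b2 (0.20) and Atp5s (0.10). In mock + NR against mock they were those of Cox4i2, Ndufa4l2 (-1.25, SE 0.51, adjusted p 0.190) and Cox6b2 (-0.35) below 0, and of Atp5s (0.42), Ndufc2 (0.19) and Atp5g2 (0.24) above it. In silicon + NR against mock + NR they were those of Ndufa4l2 (0.78), Cox4i2 (0.47) and Cox7a2l (0.11) above 0, and of Ndufc2 (-0.12), Cox8a (-0.11) and Ndufa3 (-0.16) below it. The interaction had its smallest p for Cox4i2 (log2 2.25, SE 0.76, adjusted p 0.184) and Ndufa4l2 (log2 1.49, SE 0.70, adjusted p 0.451), then Cox6b2 (0.56), above 0, and for Atp5g2 (-0.54), Ndufc2 (-0.40) and Atp5sl (-0.35) below it.

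No subunit was called in females against males, against 0.0589% of all genes by edgeR, and none by DESeq2, which called 12 genes. The 2 with an unadjusted p under 0.05, against 3.15% of all genes, were Cox8a (log2 fold change -0.30, SE 0.13) and Cox6a1 (-0.29, SE 0.14), both with an adjusted p of 1.0, and all 11 ubiquitous subunits of complex IV were below 0. The next below 0 was Ndufc2 (-0.15), and above 0 the smallest p were those of Atp5s (0.21), Cox6a2 (0.56) and Atp5g1 (0.26).

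Ratios of isoforms within a library, which do not depend on library size, were compared for 5 pairs in 6 contrasts by exact two-sided permutation tests. None of the 30 passed after Benjamini-Hochberg adjustment. The log2 ratio of Cox6a2 to Cox6a1 was -3.17 ± 1.48 in GCR and -0.92 ± 1.76 in mock (SD, n = 7 each), a difference of -2.25 (exact p 0.0268, adjusted 0.195). For Cox8b to Cox8a it was -4.16 ± 1.13 in GCR and -2.0 ± 2.3 in mock (difference -2.17, exact p 0.0443, adjusted 0.195). For Cox7a1 to Cox7a2 it was -3.47 ± 1.25 in GCR and -1.75 ± 1.79 in mock (difference -1.72, exact p 0.0612, adjusted 0.195). In silicon these 3 muscle pairs differed from mock by 1.27, 1.45 and 0.86 in the order Cox6a, Cox8, Cox7a, with exact p of 0.199, 0.188 and 0.296 (adjusted 0.374, 0.374 and 0.493). The ratio of Cox4i2 to Cox4i1 was -6.52 ± 0.84 in silicon and -4.63 ± 1.47 in mock (difference -1.89, exact p 0.0233, adjusted 0.195). The ratio of Ndufa4l2 to Ndufa4 was -6.77 ± 1.80 in GCR and -4.81 ± 1.16 in mock (difference -1.96, exact p 0.0286, adjusted 0.195). In silicon this ratio differed from mock by -1.29 (exact p 0.0396, adjusted 0.195). In silicon + NR it differed from mock + NR by 0.728 (exact p 0.0498, adjusted 0.195).

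The muscle isoforms did not keep 1 ratio among themselves. Cox8b per Cox6a2 had a median of 0.384 over the 37 libraries and a range from 0.216 in gamma replicate 4 to 2.80 in silicon replicate 3. It was over 0.7 in 7 libraries, which were silicon replicate 3, mock + NR replicate 4 (2.08), GCR replicate 2 (1.93), mock replicate 5 (1.18), GCR replicate 5 (0.733), gamma replicate 3 (0.719) and silicon replicate 6 (0.712). The brown fat gene Ucp1 was over 100 CPM in 4 libraries, and all 4 are among these 7. They held 149 CPM in silicon replicate 3, 500 CPM in mock replicate 5, 807 CPM in gamma replicate 3 and 112 CPM in silicon replicate 6. The other 3 had 33.8, 3.10 and 0.60 CPM of Ucp1, and in both GCR libraries Cox6a2 was low, at 8.37 and 13.6 CPM. The 3 Ccl19-rich libraries, silicon replicates 3 and 6 and mock + NR replicate 4, are also among the 7. Libraries with less Ucp1 could have lower ratios. Mock replicate 3 had 94.4 CPM of Ucp1 and a ratio of 0.613. It lay just under the Ucp1 limit, and silicon replicate 6 lay just above both limits. The overlap of the 4 libraries with the 7 thus depends on where these limits were drawn. Silicon replicate 7 had 55.4 CPM and 0.436, and GCR replicate 4 had 43.0 CPM and 0.44. The part of brown fat or lymphoid tissue in these ratios was not tested.

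**Figure D5:**
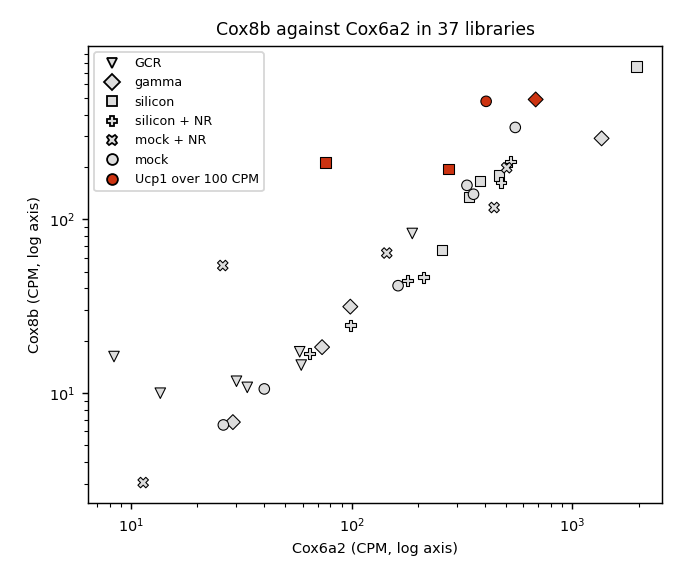
Cox8b against Cox6a2 in CPM on log axes in 37 libraries, with a symbol for each group and red fill where Ucp1 was over 100 CPM. The 4 red points, 1 gamma, 2 silicon and 1 mock library, lie above the band that most libraries form.

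Genes around the machinery were counted from lists. In GCR against mock 8.03% of all genes were called higher and 8.52% lower, and each list is to be read beside these shares. Of 42 tested assembly factors 1 rose and 8 fell, with a median log2 fold change of -0.35. The ones of smallest p that fell were Sdhaf2 (-0.58, adjusted p 0.0108), which attaches FAD to Sdha, Sdhaf3 (-1.16, adjusted p 0.0162), which helps mature Sdhb, Surf1 (-0.41, adjusted p 0.0171), an assembly factor of complex IV, and Cox15 (-0.89, adjusted p 0.0197), which makes heme A for complex IV. Sdhaf3 ran from 1.09 to 5.77 CPM in GCR and from 4.80 to 8.63 CPM in mock. Coa3, a factor for Cox1 translation and assembly, rose (0.51, adjusted p 0.0214). Of 12 regulators of biogenesis 2 fell, Perm1, a muscle regulator (-3.40, adjusted p 0.0370), and Tfb1m, a mitochondrial rRNA methyltransferase (-0.87, adjusted p 0.0289). Of 13 citric acid cycle enzymes 1 fell, Idh3b (-1.36, adjusted p 0.0400), and all 13 were below 0 with a median of -1.08. Of 6 further subunits and carriers Atpif1, the inhibitor of ATP synthase, rose (0.69, adjusted p 0.0267), with 155 to 310 CPM in GCR and 146 to 226 CPM in mock. All of these p are from edgeR. Without the Acta1-rich libraries no gene was called in GCR against mock, so these calls were lost as well. No member of these 4 lists was called in any other contrast by edgeR.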

How the data were processed

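Lung total RNA was extracted with Trizol and made into libraries with SMART-seq v4 and Nextera XT, per the labels' protocols. Nextera XT does not mark strand, so genes that overlap on opposite strands cannot be told apart. Atp5o has 2 entries in GENCODE M21 (GRCm38). The entry used here lies with 100% of its exon bases in Donson, on the same strand, and the other was not examined. The deposited table holds whole-number counts of reads for each symbol, which the authors left without normalization. Tools named, per the submitters' processing notes, were HTSeq 0.13.5, STAR 2.5.2, Trimmomatic 0.36, MultiQC 1.12 and FastQC 0.11.4, with the build mm10. No source used here names the annotation or the handling of reads with several matches, so subunits with processed pseudogenes are uncertain. Per-sample columns left unused numbered 0.

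Symbols matched GENCODE M21 for 83 of 84 members. Transcript length is that of the shortest principal transcript. CPM were computed from library totals. Counts were tested with edgeR 4.0.16 (R 4.3.3, TMM, filterByExpr, 16977 genes, 6 groups and sex in 1 model over 37 libraries) and called at an adjusted p under 0.05. Each standard error is the log2 fold change divided by the square root of F. The self-test on simulated data for GCR against mock recovered 95% of genes changed 4-fold and 54% of those changed 2-fold. Isoform ratios used a prior count of 0.5. Alternatives were DESeq2 1.42.0, limma 3.58.1 voom with quality weights, RLE factors, no filter, no sex term, only the groups compared, and fits without marker-rich libraries or without each library. Fits without Acta1- or Nppa-rich libraries together and with muscle and heart marker means as covariates were added after the data were seen.

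The members and lists were chosen with earlier results of these data known. Named were the isoform genes, core subunits, the extremes of level and of spread, and in each contrast the called members of smallest p, up to 5 in each direction, or the 3 of smallest p where fewer than 3 were called. Fixed genes were given where they bear on a contrast, not in every contrast, and 1 of them is not reported here. Groups are those of the labels, and p-values measure the spread between mice. Chi-square values showed that libraries of 1 group differed by more than counting error (at least 19.18 per degree of freedom), and reads without molecular identifiers are not independent molecules.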

Additional observations from a re-analysis of the deposited data

Results flagged for a closer look

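In 60 groups of library values tested, 9 held a library far from the others of its group, and chance flags about 1 group in 20. Silicon replicate 4 accounted for 7 of them. Its summed CPM of ubiquitous subunits was 14560 for complex I (5237 to 7201 in the other silicon mice), 3114 for complex II (863 to 1524), 5798 for complex III (1965 to 2801), 8042 for complex IV (3653 to 4538) and 16460 for complex V (4864 to 7566). Its log2 ratio of Cox7a1 to Cox7a2 was 0.297 (-1.34 to -0.93 in the others) and of Cox8b to Cox8a 2.03 (-2.16 to -0.41). This library had the highest Acta1 of the study, and its part in these values was not tested. GCR replicate 4 accounted for the other 2, with 5122 CPM for complex V (2500 to 3429 in the other GCR mice, the lowest being 2499.8) and a log2 ratio of Cox8b to Cox8a of -1.86 (-5.34 to -3.91). That library had 1222 CPM of Nppa and 43.0 CPM of Ucp1, both the highest in GCR.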

How the results depend on the processing

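Subunits called in GCR against mock, 9 in the fit as reported, numbered 5 with RLE factors, 3 without the count filter, 15 with DESeq2, 5 with voom, 0 in a fit of only the groups compared, 0 without Acta1-rich libraries, 0 without Rn45s-rich ones, 4 without Ccl19-rich ones, 14 without Nppa-rich ones, 0 without Acta1- or Rn45s-rich ones, 0 without Acta1- or Nppa-rich ones and 3, all higher, with muscle and heart covariates. All genes called, 2811 as reported, numbered 2775, 2341, 3834, 1516, 909, 0, 0, 2653, 3310, 0, 0 and 561 in the same order. Subunits called without each library in turn numbered 0 to 15. There were 0 without GCR replicate 2 or 5, 1 without GCR replicate 6, and 2 without GCR replicate 1 or mock replicate 3, 5 or 6. There were 15 without GCR replicate 4 or gamma replicate 3. Counts of all genes in these fits are not given here, so whether such changes are particular to the subunits is not said. The sign turned for Cox8b (0.24 without Acta1-rich, 0.45 without Acta1- or Rn45s-rich, 0.07 without Acta1- or Nppa-rich libraries, 0.29 with covariates) and for Cox7a1 (0.04 with covariates). The cause was not tested. Against 0 as reported, silicon against mock had 1 call with DESeq2, 1 without Acta1-rich, 2 without Acta1- or Rn45s-rich and 1 without Acta1- or Nppa-rich libraries, and 0 to 1 without each library, among 425, 725, 1120 and 867 genes in the first 4. Mock + NR against mock had 1 with DESeq2, 1 with voom, 2 without Acta1- or Rn45s-rich and 1 without Acta1- or Nppa-rich libraries, among 591, 994, 870 and 573 genes. Silicon + NR against silicon had 10 with voom, among 4207 genes. The interaction had 1 without Acta1-rich, 2 without Acta1- or Rn45s-rich and 1 without Acta1- or Nppa-rich libraries, among 1335, 1691 and 1462 genes. Without each library in turn these last 3, gamma against mock, silicon + NR against mock + NR, females against males and the isoform ratios had 0. No paired analysis was possible because the labels give no replicate numbers that tie mice of different groups together. The shallowest library allows up to 0.32 CPM at a count of 0.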
